A study of Mus musculus with 6 samples.

Results

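Vascular smooth muscle cells (VSMCs) secrete chemokines and cytokines and carry adhesion molecules through which leukocytes are drawn to and held in the vessel wall. The genes described here are 10 of the 18112 genes in the expression table, taken by symbol, and all 10 were found: the CC chemokines Ccl2, Ccl7 and Ccl5, the CXC chemokines Cxcl1, Cxcl5 and Cxcl12, the cytokines Il6 and Csf1, and the adhesion molecules Vcam1 and Icam1. RNA was sequenced on the BGISEQ-500 platform from primary aortic VSMCs of C57BL/6 mice. The control group was 3 libraries from Smyd2 fl/fl mice, whose Smyd2 gene carries loxP sites and is intact, and the knockout group was 3 libraries from Smyd2 SMC-/- mice, which carry the same floxed alleles together with the Tagln-Cre (SM22α-Cre) transgene. No treatment differed between the groups, and the mice were 8 to 10 weeks old. The cells were at passage 6 in medium with 10% serum per the sample labels, but at passage 4 and starved overnight per the methods, and this difference could not be settled. Tagln-Cre deletes wherever Tagln has been active, which is known to include some cells other than smooth muscle. The sources do not say whether the replicates came from separate animals, so p-values measure the spread between these libraries, which may be technical.

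Chemokines are small secreted proteins that guide leukocytes through G protein-coupled receptors, and are sorted by the spacing of their first cysteines. CC chemokines such as Ccl2 and Ccl7 act mainly on monocytes through Ccr2, CXC chemokines with a glutamate-leucine-arginine motif such as Cxcl1 and Cxcl5 act on neutrophils through Cxcr2, and Cxcl12 acts through Cxcr4 and is also bound by the scavenging receptor Ackr3. Many of these genes, with Il6, Vcam1 and Icam1, are known targets of NF-kappaB in cells exposed to interleukin 1 or tumour necrosis factor.

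The cysteine spacing that sorts the 6 chemokines is shown in the coding strand of each gene in GRCm38, read from GENCODE release M21, with the codons of the first pair of cysteines in capitals. Each stretch lies in exon 2. The stretches were taken from chr11:82036497-82036520 (plus strand, Ccl2), chr11:82046529-82046552 (plus strand, Ccl7), chr11:83529233-83529256 (minus strand, Ccl5), chr5:90891487-90891513 (plus strand, Cxcl1), chr5:90759718-90759744 (plus strand, Cxcl5) and chr6:117171499-117171525 (plus strand, Cxcl12).
Ccl2: ccactcaccTGCTGCtactcattc
Ccl7: gcatccacaTGCTGCtatgtcaag
Ccl5: accactcccTGCTGCtttgcctac
Cxcl1: gagctgcgcTGTcagTGCctgcagacc
Cxcl5: gagctgcgtTGTgttTGCttaaccgta
Cxcl12: agctaccgaTGCcccTGCcggttcttc
The capital codons touch in the CC genes and are parted by 1 codon in the CXC genes. Cxcl1 and Cxcl5 both encode the glutamate-leucine-arginine motif just before the first cysteine, with different codons for the arginine, and Cxcl12 has other codons there.

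The libraries with replicate number 1 stood apart from the others. Spearman correlations of replicate 1 with replicates 2 and 3 were 0.930 and 0.934 among controls and 0.920 and 0.925 among knockout libraries, against 0.992 and 0.989 between replicates 2 and 3. Principal component 1 carried 50.2% of the variance and placed replicate 1 of the controls at -58.6 and that of the knockout cells at -25.4, below the other libraries of the same group. Results are therefore given with all 6 libraries and, where the call or, among the 10 genes, the direction differed, with replicates 2 and 3 alone, a comparison of 2 against 2 libraries. Depth, estimated from the steps between low values, lay between 17750000 fragments (knockout replicate 1) and 20900000 fragments (control replicate 3).

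Smyd2, the deleted lysine methyltransferase, was measured at 7.87, 3.10 and 3 FPKM (fragments scaled to transcript length and library size) in Smyd2 fl/fl replicates 1, 2 and 3 and at 1.67, 0.40 and 0.80 FPKM in Smyd2 SMC-/- cells. Every knockout library lay below every control library, as the labels say. The log2 fold change of FPKM + 1, the scale of all fold changes here, was -1.48 ± 0.39 (SE), with an adjusted p of 0.105 by limma, which missed the threshold of 0.05. It was 0.0189 when limma took replicate numbers as a block and 0.00126 with replicates 2 and 3 alone, and over all alternatives it ran from 0.00126 to 0.308.

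Of 12565 genes that averaged 0.5 FPKM or more over the 6 libraries, 154 were called higher in Smyd2 SMC-/- cells (1.23%) and 152 lower (1.21%) at a limma adjusted p under 0.05. Rescaling each library to the same sum (TPM), which also raised all values against the added 1, gave 247 higher and 99 lower. It shifted the median fold change over the tested genes from -0.02 to 0.10 on the log2 scale. These counts changed with the library left out. They were 16 to 27 higher and 16 to 28 lower without control replicate 2 or 3 or knockout replicate 2 or 3. Without knockout replicate 1 they were 372 and 310, and without control replicate 1 they stayed near, at 121 and 157. All 10 inflammatory genes passed the filter, Ccl5 and Cxcl5 only through their level in control cells. By limma, 1 of the 10, Ccl5, was called lower and 0 were called higher (Ccl5 had an adjusted p of 0.0235, and 0.0412 with no filter), and at an unadjusted p under 0.05 the counts were 3 lower, against 11.2% of all genes, and 0 higher, against 9.16%. The median log2 fold change of the 10 was -0.10, against -0.02 for all genes, and turned to 0.20, against -0.06, for the 9 tested with replicates 2 and 3 alone. With the replicate block, 3 were called lower, against 5.72% of all genes, and 0 higher, against 4.72%. With replicates 2 and 3 alone, 3 of 9 tested genes were called higher, against 12.1% of all genes, and 3 lower, against 17.3%. Libraries of the groups did not overlap for 3 genes that were lower (Ccl5, Cxcl5 and Icam1; 15.0% of all genes did this) and for 1 that was higher (Cxcl12; 13.1%).

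**Figure D1:**
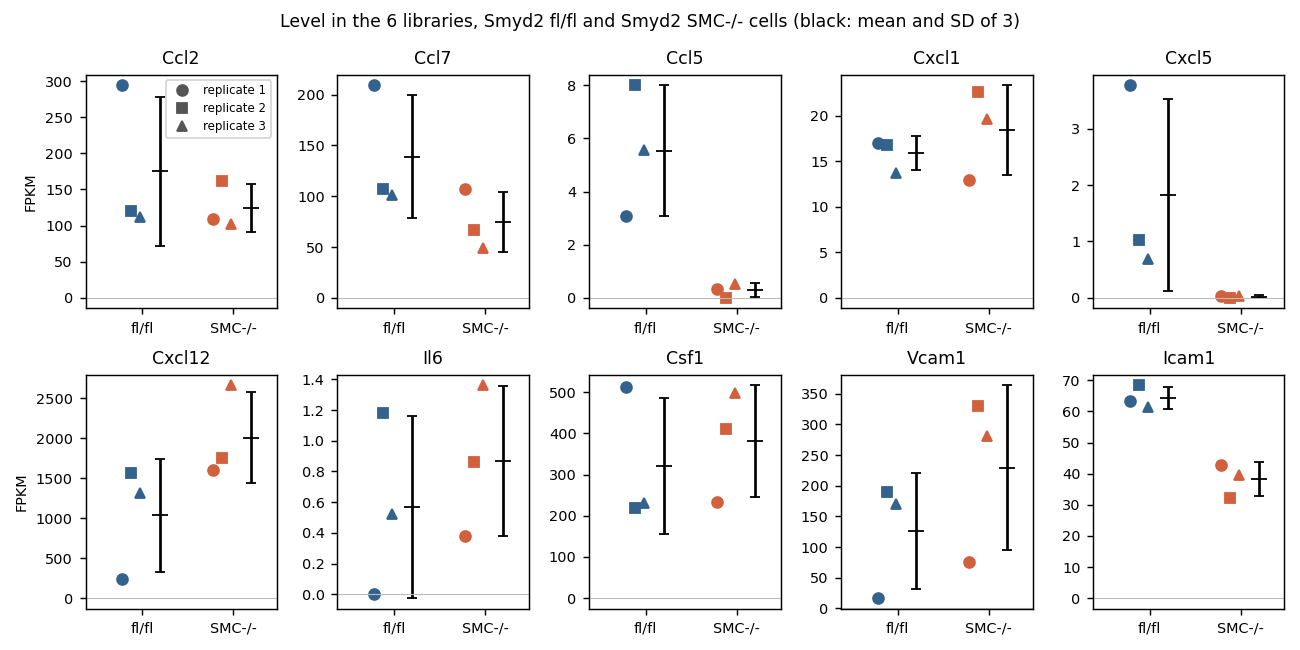
FPKM of the 10 genes in each library (circle, square and triangle are replicates 1, 2 and 3; blue, Smyd2 fl/fl; orange, Smyd2 SMC-/-), with the mean and SD of 3 libraries in black and a separate axis for each gene. Ccl5, Cxcl5 and Icam1 were lower and Cxcl12 was higher in all 3 knockout libraries. Replicate 1 lies far from replicates 2 and 3 for Csf1, Vcam1 and Ccl7 in both groups. It also does so for Ccl2, Cxcl5 and Cxcl12 in control cells and for Cxcl1 in knockout cells.

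The 10 genes spanned a wide range of levels on the FPKM scale, which is per transcript length. In Smyd2 fl/fl cells Cxcl12 came first by its mean at 1037 ± 707 FPKM (SD, n = 3), though below Csf1 and Ccl2 in replicate 1, followed by Csf1 at 321 ± 165, Ccl2 at 175 ± 103, Ccl7 at 139 ± 60.9, Vcam1 at 126 ± 95.2 and Icam1 at 64.4 ± 3.58. Cxcl1 at 15.9 ± 1.86, Ccl5 at 5.54 ± 2.46, Cxcl5 at 1.82 ± 1.69 and Il6 at 0.567 ± 0.591 FPKM closed the order. Neighbours from Csf1 down to Icam1 lay within an SD of each other, whereas Icam1, Cxcl1 and Ccl5 lay further apart than their spread. In Smyd2 SMC-/- cells the order was Cxcl12, Csf1, Vcam1, Ccl2, Ccl7, Icam1, Cxcl1, Il6, Ccl5 and Cxcl5, so that Vcam1 stood before Ccl2, and Il6 before Ccl5. Vcam1 already stood above Ccl2 in control replicates 2 and 3 (190.63 and 170.73 against 119.70 and 111.40 FPKM), so its lower place in the control order comes from replicate 1. In knockout replicate 1 too it lay below Ccl2 and Ccl7, at 76.17 against 109.36 and 106.70 FPKM.

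Ccl2 and Ccl7, the monocyte chemoattractants, are neighbouring genes at chr11:82035571-82037453 and chr11:82045712-82047525 on the plus strand. Ccl2 was measured at 294.36, 119.70 and 111.40 FPKM in Smyd2 fl/fl cells and at 109.36, 161.99 and 101.58 FPKM in Smyd2 SMC-/- cells. Its groups overlapped, and the high library was control replicate 1. Its log2 fold change was -0.37 (95% interval -1.33 to 0.58, adjusted p = 0.669 by limma), and with replicates 2 and 3 alone it turned to 0.15 (adjusted p = 0.634), and without control replicate 1 to 0.075 (0.883). Ccl7 was measured at 209.25, 106.63 and 101.06 FPKM in Smyd2 fl/fl cells and at 106.70, 66.90 and 48.96 FPKM in Smyd2 SMC-/- cells. Each knockout library was below the control library with the same number, although knockout replicate 1 reached the level of control replicates 2 and 3. The log2 fold change of Ccl7 was -0.89 ± 0.38 (SE), with an adjusted p of 0.251 by limma, 0.0227 with the replicate block and 0.00631 with replicates 2 and 3 alone. It was -0.55 without control replicate 1 and -1.18 without knockout replicate 1. Over all alternatives the adjusted p ran from 0.00631 to 0.578. The level of Ccl7 relative to Ccl2 was 0.711, 0.891 and 0.907 in the 3 control libraries and 0.976, 0.413 and 0.482 in the 3 knockout libraries, so the ratio was low in knockout replicates 2 and 3 and not in replicate 1.

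Ccl5 (RANTES), which attracts T cells and monocytes, lies at chr11:83525778-83530518 on the minus strand. It was measured at 3.08, 8 and 5.55 FPKM in Smyd2 fl/fl cells and at 0.35, 0 and 0.51 FPKM in Smyd2 SMC-/- cells. The groups were far apart, and 1 knockout library was listed at 0. Ccl5 fell by 2.29 on the log2 scale (SE 0.33, adjusted p = 0.0235 by limma), in 3 of 3 pairs of libraries with the same number. On this scale the change of a low gene is understated: in estimated fragments, 26, 71 and 50 were counted in control and 3, 0 and 4 in knockout libraries, 19.9-fold more in control (exact binomial 95% interval 9.43 to 50.4, which covers counting error only). That ratio was 13.0 without knockout replicate 2, 30.4 without knockout replicate 3, and between these without any other library. The call was kept with the replicate block (adjusted p = 0.0258) and with replicates 2 and 3 alone (0.000423). It was lost on leaving out control replicate 2 (0.0945), control replicate 3 (0.127), knockout replicate 2 (0.110) or knockout replicate 3 (0.101), with the log2 fold change between -2.60 and -2.03 in the 6 such fits.

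Cxcl1 and Cxcl5, which act on neutrophils, lie on chromosome 5 at chr5:90891241-90893115 and chr5:90759360-90761624. Cxcl1 was measured at 17.02, 16.82 and 13.71 FPKM in Smyd2 fl/fl cells and at 12.98, 22.63 and 19.60 FPKM in Smyd2 SMC-/- cells. Its groups overlapped, with knockout replicate 1 the lowest of all 6 libraries. For Cxcl1 the log2 fold change was 0.18 (95% interval -0.35 to 0.70, adjusted p = 0.720 by limma). With replicates 2 and 3 alone it was 0.45 (adjusted p = 0.0365; 0.0365 to 0.980 over all alternatives), and it ran from 0.016 without knockout replicate 2 to 0.40 without knockout replicate 1. Cxcl5 was measured at 3.77, 1.02 and 0.68 FPKM in Smyd2 fl/fl cells and at 0.04, 0 and 0.03 FPKM in Smyd2 SMC-/- cells. The groups did not overlap, and the knockout libraries were at or near 0. These levels stand for an estimated 108, 31 and 21 fragments in control libraries and 1, 0 and 1 in knockout libraries, a ratio of 75.9 (exact binomial 95% interval 20.7 to 632, counting error only). Control replicate 1 holds most of these fragments, and without it the ratio was 36.3 (9.55 to 308); without knockout replicate 2 it was 49.7. The limma test did not call Cxcl5, with a log2 fold change of -1.31 ± 0.39 (SE) and an adjusted p of 0.136. It was under 0.05 only with a term for replicate 1 against the others (0.0252), and ran up to 0.353 over all alternatives.

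Cxcl12 (SDF-1), which holds and recruits CXCR4-bearing cells, lies at chr6:117168535-117181367. It was measured at 233.43, 1565.98 and 1311.85 FPKM in Smyd2 fl/fl cells and at 1606.86, 1756.49 and 2659.57 FPKM in Smyd2 SMC-/- cells. Every knockout library was above every control library, by little between the highest control and the lowest knockout library, and control replicate 1 was far below the rest. The log2 fold change was 1.32 (95% interval -0.38 to 3.03, adjusted p = 0.359 by limma) and 0.59 (adjusted p = 0.0751) with replicates 2 and 3 alone, and 0.45 (0.381) without control replicate 1. Among the 28 chemokine genes in the table, Cxcl12 made up 29.4, 82.3 and 80.7% of the summed FPKM in control libraries and 85.1, 84.1 and 91.8% in knockout libraries. Control replicate 1 was thus the 1 library where Ccl2 and Ccl7, at a summed 503.61 FPKM, exceeded Cxcl12.

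Il6, which signals through Il6st, lies at chr5:30013114-30019981 and was barely detected, at 0, 1.18 and 0.52 FPKM in Smyd2 fl/fl cells and at 0.38, 0.86 and 1.36 FPKM in Smyd2 SMC-/- cells. The groups overlapped, with a log2 fold change of 0.29 (95% interval -0.53 to 1.11, adjusted p = 0.702 by limma), which fell to 0.0021 without control replicate 1 and rose to 0.56 without control replicate 2. Csf1, the growth factor of macrophages, lies at chr3:107741048-107760469 on the minus strand. It was measured at 511.65, 219.46 and 231.45 FPKM in Smyd2 fl/fl cells and at 232.95, 411.76 and 498.26 FPKM in Smyd2 SMC-/- cells. Replicate 1 ran opposite to the others: the difference in log2(FPKM + 1), knockout minus control, was -1.13 in pair 1 and 0.90 and 1.10 in pairs 2 and 3. Csf1 had a log2 fold change of 0.29 (95% interval -0.70 to 1.28, adjusted p = 0.757 by limma) over all libraries and 1.00 (adjusted p = 0.00175; 0.00175 to 0.976 over all alternatives) with replicates 2 and 3 alone. With 1 library left out it ran from 0.064 without knockout replicate 3 to 0.69 without control replicate 1.

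Vcam1 and Icam1, ligands of the leukocyte integrins that contain Itga4 and Itgb2, differed in direction. Vcam1 lies at chr3:116109949-116129688 on the minus strand and was measured at 16.68, 190.63 and 170.73 FPKM in Smyd2 fl/fl cells and at 76.17, 329.48 and 281.55 FPKM in Smyd2 SMC-/- cells. Both replicate 1 libraries were low, and within each replicate number the knockout library was the higher, by 2.13, 0.79 and 0.72 on the log2 scale. Vcam1 had a log2 fold change of 1.21 (95% interval -1.24 to 3.66), with an adjusted p of 0.574 by limma, 0.0713 with the replicate block and 0.00536 with replicates 2 and 3 alone. The size changed with the libraries used: it was 0.75 on the log2 scale with replicates 2 and 3 alone, 0.09 without control replicate 1 and 1.87 without knockout replicate 1. Over all alternatives the adjusted p of Vcam1 ran from 0.00536 to 0.952. Icam1, at chr9:21015985-21028817, had the smallest SD relative to its mean of the 10 genes in control cells, at 63.37, 68.36 and 61.43 FPKM, and was measured at 42.72, 32.21 and 39.67 FPKM in Smyd2 SMC-/- cells. The groups did not overlap, and replicate 1 did not stand apart. The log2 fold change was -0.75 ± 0.14 (SE), with an adjusted p of 0.0542 by limma, just over the threshold, 0.0377 with the replicate block and 0.00286 with replicates 2 and 3 alone; leaving out knockout replicate 1 gave 0.0351. Over all alternatives the adjusted p of Icam1 ran from 0.00286 to 0.206. The exact permutation test over the 20 regroupings of 6 libraries cannot go below 0.1, which it gave for Ccl5, Cxcl5, Cxcl12 and Icam1, and this restates only that their groups did not overlap.

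**Figure D2:**
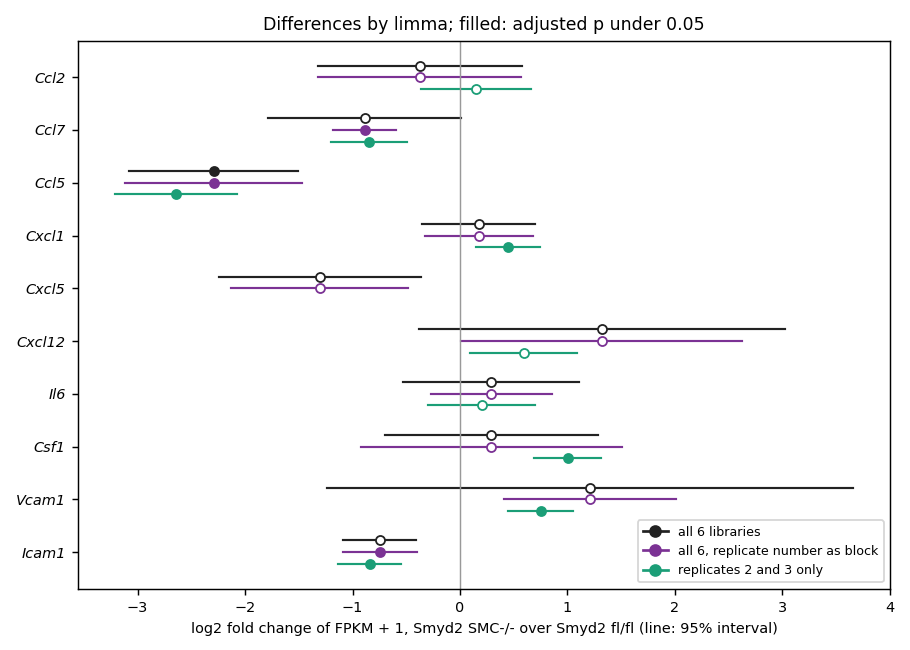
Log2 fold change of FPKM + 1 for each gene by limma, with its 95% interval, over all 6 libraries (black), with the replicate number as a block (purple) and with replicates 2 and 3 alone (green); filled points have an adjusted p under 0.05. Only Ccl5 is filled in all 3 fits, and Csf1 and Vcam1 are filled in the last alone, as is Cxcl1.

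**Figure D3:**
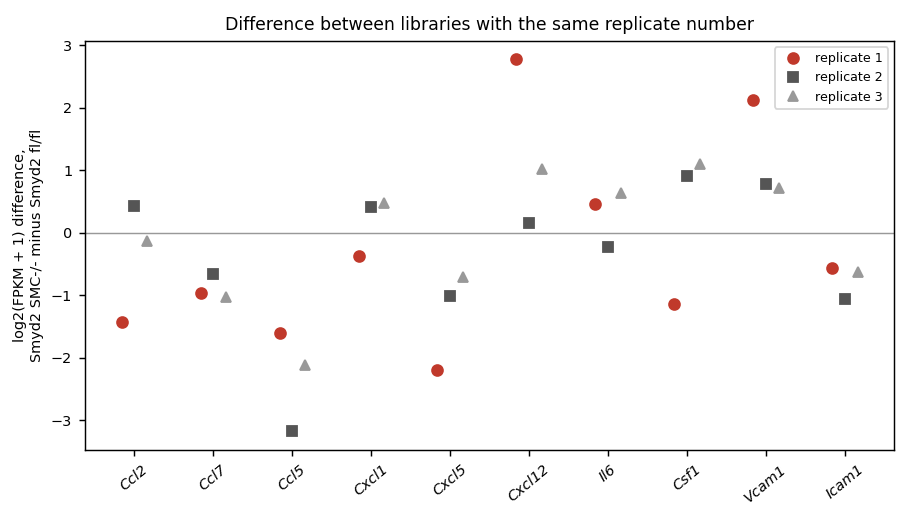
Difference in log2(FPKM + 1) between the knockout and the control library with the same replicate number, for replicates 1 (circle), 2 (square) and 3 (triangle). Ccl7, Ccl5, Cxcl5 and Icam1 lie below 0 and Cxcl12 and Vcam1 above 0 in all 3 pairs, and Csf1 lies at -1.13 in pair 1 and above 0 in the others.

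The RefSeq promoter table (GRCm38.p6) held 5 of the 10 genes, from 250 bases before to 50 after the start site: Cxcl1, Cxcl12, Il6, Csf1 and Icam1. Its start sites can differ from the gene starts given above: the Icam1 window ends at 21015989, and the gene was placed from 21015985. The promoters of Cxcl1 and Icam1 are shown, as only these of the 5 hold GGAANTTCC. The motif was searched on both strands and occurs in 0.928% of 32851 promoters, and the NF-kappaB consensus, which it partly overlaps, in 8.46%. Capitals mark matches to either in chr5:90890995-90891294 (plus strand, Cxcl1) and to GGAANTTCC in chr9:21015690-21015989 (plus strand, Icam1).
Cxcl1: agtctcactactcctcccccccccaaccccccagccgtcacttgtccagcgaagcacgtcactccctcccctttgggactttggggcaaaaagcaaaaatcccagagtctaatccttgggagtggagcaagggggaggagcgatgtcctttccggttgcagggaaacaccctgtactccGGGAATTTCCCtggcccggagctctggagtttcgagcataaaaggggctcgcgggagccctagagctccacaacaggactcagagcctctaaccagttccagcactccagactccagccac
Icam1: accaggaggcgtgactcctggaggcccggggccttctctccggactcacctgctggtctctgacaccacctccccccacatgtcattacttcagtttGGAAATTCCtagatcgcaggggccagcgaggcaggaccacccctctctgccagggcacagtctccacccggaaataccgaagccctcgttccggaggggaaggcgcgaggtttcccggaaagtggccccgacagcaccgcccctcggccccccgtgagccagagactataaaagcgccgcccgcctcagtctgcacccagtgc
The NF-kappaB consensus was also matched in the windows of Il6 and Csf1, and neither motif in that of Cxcl12. TGANTCA, the AP-1 motif, was matched on either strand in the window of Il6 alone of the 5 and in 7.81% of all promoters. A match describes the letters alone.

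Of 134 other genes on 9 lists of the pathway, 116 were in the table and 66 passed the filter. By limma 1 was called lower, Tnfaip3, against 1.21% of all genes, and 0 higher, against 1.23%. At an unadjusted p under 0.05 the counts were 8 lower (11.2% of all genes) and 6 higher (9.16%), and with the replicate block 6 were called lower (5.72%) and 4 higher (4.72%). With replicates 2 and 3 alone 18 were called lower (17.3%) and 12 higher (12.1%).

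NF-kappaB subunits, kinases and inhibitors held the called gene. Tnfaip3 (A20), the deubiquitinase that restrains NF-kappaB and is itself induced by it, was measured at 21.15, 12.29 and 12.77 FPKM in Smyd2 fl/fl cells and at 4.94, 5 and 5.35 FPKM in Smyd2 SMC-/- cells. All 3 knockout libraries were below the controls. Tnfaip3 fell by 1.39 on the log2 scale (adjusted p = 0.0347 by limma), and the call was lost without the filter (0.0553), without control replicate 2 (0.0997) or 3 (0.123) and without knockout replicate 2 (0.144) or 3 (0.155). The median of the 15 genes was -0.24, with 10 below 0, against -0.02 for all genes, and the unadjusted p was under 0.05 for 5 that were lower and 0 that were higher (11.2% and 9.16% of all genes). With replicates 2 and 3 alone 7 of the 15 were called lower and 1 higher (17.3% and 12.1%). Rela, the main activating subunit, was measured at 102.21, 80.52 and 77.09 FPKM in control and 59.72, 49.76 and 55.22 FPKM in knockout cells (adjusted p = 0.0816 by limma, 0.0320 with the block and 0.00632 with replicates 2 and 3 alone). Nfkb2 averaged 47.3 FPKM in control and 32.4 FPKM in knockout cells (adjusted p = 0.168, and 0.00279 with replicates 2 and 3 alone). Nfkbie, an inhibitor named after its values were seen, was called lower with the block (0.0372) and with replicates 2 and 3 alone (0.00154), and not with all 6 libraries and no block (0.164).

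Of 18 other CC chemokine genes 5 passed the filter and 0 were called. At an unadjusted p under 0.05, 2 were higher and 0 lower (9.16% and 11.2% of all genes). With replicates 2 and 3 alone 2 were called higher and 1 lower (12.1% and 17.3%). Ccl8 was measured at 1.57, 1.46 and 1.38 FPKM in control and at 14.82, 4.76 and 2.34 FPKM in knockout cells (adjusted p = 0.201 by limma, and 0.0406 with replicates 2 and 3 alone), above every control library but mostly in replicate 1. Ccl27a averaged 2.10 FPKM in control and 4.88 FPKM in knockout cells (adjusted p = 0.0782, 0.0486 with the block and 0.0163 with replicates 2 and 3 alone), and near-identical copies of this gene are known in the mouse genome, whose part in its values was not tested. Ccl25 averaged 3.05 and 2.55 FPKM. Of 14 CXC, CX3C and XC genes 6 passed and 0 were called. Unadjusted, 0 were higher and 2 lower (9.16% and 11.2% of all genes), and 2 and 2 with replicates 2 and 3 alone (12.1% and 17.3%). With the block Cxcl15, at 8.74 FPKM in control and 17.9 FPKM in knockout cells, was called higher (0.0404) and Cxcl16, at 16.5 and 7.54 FPKM, lower (0.0314, and 0.0453 without control replicate 1). With replicates 2 and 3 alone their adjusted p was 0.0239 and 0.000331. Cx3cl1 averaged 14.5 and 12.2 FPKM.

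Receptors for these chemokines that were in the table were at low levels, apart from Ackr3. Of 23 receptor genes 18 were in the table, without Cxcr4, the signalling receptor of Cxcl12, and 12 of the 18 averaged under 0.1 FPKM, and 1 passed the filter. Ackr3 was measured at 0.76, 9.93 and 9.96 FPKM in control and at 3.64, 24.41 and 28.87 FPKM in knockout cells, low in both replicate 1 libraries and higher in knockout cells within each number. It was not called (adjusted p = 0.499 by limma) but was called higher with the block (0.0109) and with replicates 2 and 3 alone (0.000236). Ccr10 and Ccrl2, the next in level, averaged 0.207 and 0.197 FPKM in control and 0.370 and 0.367 FPKM in knockout cells.

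Of 15 genes of the interleukin 6 family and its receptors, 11 passed the filter and 0 were called, with a median of 0.17 against -0.02 for all genes. Unadjusted, 2 were higher and 0 lower (9.16% and 11.2% of all genes), and 2 and 3 with replicates 2 and 3 alone (12.1% and 17.3%). Il6st, the shared signalling receptor, averaged 133 FPKM in control and 99.6 FPKM in knockout cells (called lower with replicates 2 and 3 alone, 0.0239), Stat3 69.7 and 79.1 FPKM, and Osmr 58.9 and 72.5 FPKM. Lif, named after its values were seen, was measured at 2.38, 4 and 3.77 FPKM in control and at 6.72, 12.07 and 8.20 FPKM in knockout cells, with an adjusted p of 0.0690 by limma. It was called higher with the block (0.0201), a term for replicate 1 (0.00572), TPM (0.0497), replicates 2 and 3 alone (0.00286) or knockout replicate 1 left out (0.0463). Of 7 colony-stimulating factor genes and receptors 2 passed. Csf1r, the receptor of Csf1, averaged 0.530 FPKM in control and 1.41 FPKM in knockout cells (adjusted p = 0.102, and 0.0225 with replicates 2 and 3 alone), and Csf2ra 1.85 and 0.523 FPKM (0.0720, 0.0460 with the block and 0.0154 with replicates 2 and 3 alone). Il34, the other ligand of Csf1r, averaged 0.220 and 0.257 FPKM.

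Of 21 genes of interleukin 1, TNF and Toll-like inputs 16 passed and 0 were called by limma. Unadjusted, 0 were higher and 0 lower (9.16% and 11.2% of all genes). Il1b and Tnf, which induce most of the genes described here, were at 0.04 FPKM or less in every library. Tnfrsf1a averaged 126 FPKM in control and 140 FPKM in knockout cells, Irak1 36.7 and 44.9 FPKM, and Ripk1 27.6 and 23.8 FPKM. With replicates 2 and 3 alone 4 were called lower (17.3% of all genes) and 1 higher (12.1%). The largest change in the list was then that of Il33, named after its values were seen, at 1.55, 44.58 and 40.58 FPKM in control and 2.19, 4.60 and 5.94 FPKM in knockout cells. It changed by -1.76 on the log2 scale with all libraries (adjusted p = 0.437), -2.80 with replicates 2 and 3 alone (0.0000153) and -3.13 without control replicate 1 (0.0214), but by -1.05 without control replicate 2 (0.726) and -1.11 without control replicate 3 (0.720). Tnfrsf1b, named after its values were seen, was called lower with the block (0.0376) and with replicates 2 and 3 alone (0.00527), and not with all 6 libraries and no block (0.599). Among 6 regulators of cytokine mRNA decay 0 were called. Unadjusted, 1 was higher and 0 lower (9.16% and 11.2% of all genes), and 1 and 0 with replicates 2 and 3 alone (12.1% and 17.3%). Zfp36l2 averaged 69.7 and 92.3 FPKM (called higher without knockout replicate 1, 0.0369, and with replicates 2 and 3 alone, 0.00413), Zfp36l1 76.7 and 67.0 FPKM and Zfp36 24.1 and 32.1 FPKM. Among 15 leukocyte adhesion molecules and integrins 4 passed and 0 were called. Unadjusted, 0 were higher and 0 lower (9.16% and 11.2% of all genes), and 1 and 0 with replicates 2 and 3 alone (12.1% and 17.3%). Itgb1 averaged 315 and 321 FPKM, Selp 2.87 and 2.76 FPKM and Itgb2 1.32 and 1.81 FPKM.

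**Figure D4:**
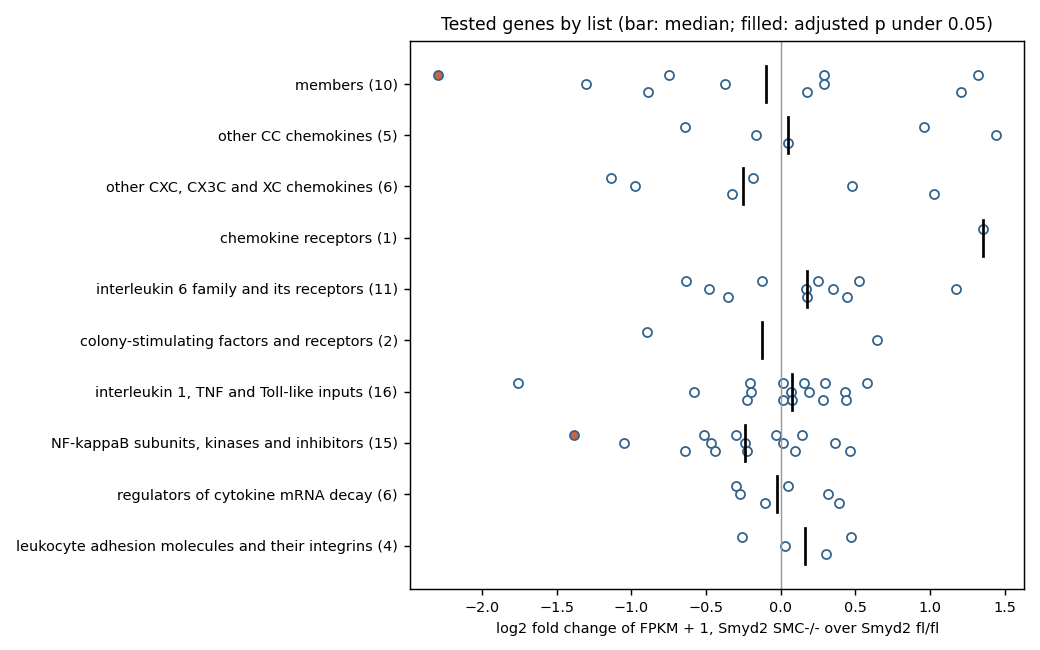
Log2 fold change of FPKM + 1 of each tested gene by list, with the number tested in brackets, the median as a black bar and genes with an adjusted p under 0.05 filled. Ccl5 and Tnfaip3 are the 2 filled points.

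Markers of other cells were summed in each library, since in bulk RNA fewer cells of a type and less RNA per cell cannot be told apart. Smooth muscle markers, 7 of 7 in the table, summed to 921.53, 821.39 and 814.12 FPKM in control and 263.30, 428.87 and 376.49 FPKM in knockout cells, mostly from Acta2, which fell by 1.55 on the log2 scale (adjusted p = 0.00803 by limma). That call was lost without control replicate 2 (0.0541) or 3 (0.0615) or knockout replicate 3 (0.0531). Myh11, a marker of mature smooth muscle, and Des were at 0.22 FPKM or less in every library, while the other 5 were detected in every library. Tagln (-0.92 on the log2 scale, adjusted p = 0.496) and Cnn1 (-0.91, 0.399) were lower over all 6 libraries but near 0, at -0.077 and -0.074, with replicates 2 and 3 alone. Smtn changed by -0.05 (0.900) and Lmod1 by 0.24 (0.817), and Lmod1 was called higher with replicates 2 and 3 alone (0.83, adjusted p = 0.00322) and without knockout replicate 1 (0.0490). Macrophage and other leukocyte markers, 11 of 12 in the table, summed to 42.83, 30.05 and 26.89 FPKM in control and 41.26, 18.41 and 23.07 FPKM in knockout cells, mostly Cd14, while Ptprc, Adgre1 and Fcgr1 were at 0.02 FPKM or less throughout. Detected in every library were Cd14 at 10.64 to 37.68 FPKM, Cd68 at 2.93 to 4.87, Lyz2 at 1.01 to 4.04, Csf1r at 0.48 to 1.66 and Cd79a at 0.04 to 0.37 FPKM. Lyz2 was called lower (0.00286) and Csf1r higher (0.0225) with replicates 2 and 3 alone, and the part of these markers in the differences in the 10 genes was not tested.

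Fibroblast and adventitia markers, 7 of 7, summed to 300.76, 917.97 and 783.63 FPKM in control and 81.09, 571.23 and 515.61 FPKM in knockout cells, with Dcn the most abundant by its mean over 6 libraries and Ly6a above it in every control library and knockout replicate 1. Of the 7, 5 were lower over all 6 libraries, 1 was called lower by limma (1.21% of all genes), 3 with the block (Dpt, Ly6a and Cd34; 5.72%) and 5 with replicates 2 and 3 alone (17.3%), where 1 was called higher (12.1%). Dpt, at 143.88, 90.32 and 65.50 FPKM in control and 3.31, 1.15 and 0.63 FPKM in knockout cells, fell by 5.28 on the log2 scale (adjusted p = 0.00417 by limma). Pdgfra averaged 26.6 and 7.92 FPKM (0.0601, 0.0266 without knockout replicate 1 and 0.000116 with replicates 2 and 3 alone) and Cd34 88.1 and 14.3 FPKM (0.0669, 0.0269 with the block, 0.0122 without knockout replicate 1 and 0.000230 with replicates 2 and 3 alone). Ly6a averaged 253 and 103 FPKM (0.552, 0.0404 with the block and 0.000317 with replicates 2 and 3 alone) and Pi16 5.68 and 1.48 FPKM (0.304, and 0.0132 with replicates 2 and 3 alone). Dcn and Lum did not fall over all 6 libraries: Dcn, at 13.88, 311.00 and 256.65 FPKM in control and 25.59, 382.86 and 350.45 FPKM in knockout cells, changed by 0.53 on the log2 scale (adjusted p = 0.890). Within each replicate number the knockout library was the higher for Dcn, and the change was 0.37 (adjusted p = 0.0778 by limma) with replicates 2 and 3 alone. It ran from -0.89 without control replicate 1 to 1.79 without knockout replicate 1, fits that keep replicate 1 in 1 group only. Dcn was called higher with a term for replicate 1 (0.0418). Lum was measured at 0, 1.31 and 1.17 FPKM in control and 0.26, 14.51 and 10.39 FPKM in knockout cells, a change of 1.82 (0.342), and was called higher with replicates 2 and 3 alone (0.0000668) and without knockout replicate 1 (0.0230). Per the methods, the adventitia was stripped off and the endothelium denuded before the cells were grown, and each batch was stained for smooth muscle actin, the product of Acta2, as a check of purity. Both replicate 1 libraries were low in this sum and in Vcam1 and Ackr3, and control replicate 1 was low in Cxcl12. The part of these cells in the differences in Ccl5, Ccl7, Icam1, Vcam1 and Cxcl12 was not tested. Endothelial markers, 8 of 8, summed to 1.75, 1.94 and 2.16 FPKM in control and 1.85, 5.61 and 3.11 FPKM in knockout cells, with Kdr the most abundant over the 6 libraries but Pecam1 (0.56, 0.88 and 0.92 FPKM) above Kdr (0.47, 0.58 and 0.84 FPKM) in each control library. Pecam1 was lower in knockout cells, at 0.12, 0.18 and 0 FPKM, and Kdr higher, at 0.96, 5.15 and 2.96 FPKM. Kdr was called higher with replicates 2 and 3 alone (0.00263) and without knockout replicate 1 (0.0276), and Cdh5 and Tie1 were at 0.01 FPKM or less. Adipocyte markers, 4 of 4, summed to 6.27, 5.04 and 3.12 FPKM in control and 118.57, 5.39 and 6.07 FPKM in knockout cells, almost wholly Fabp4 in knockout replicate 1, with Adipoq at 0.09 FPKM or less.

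**Figure D5:**
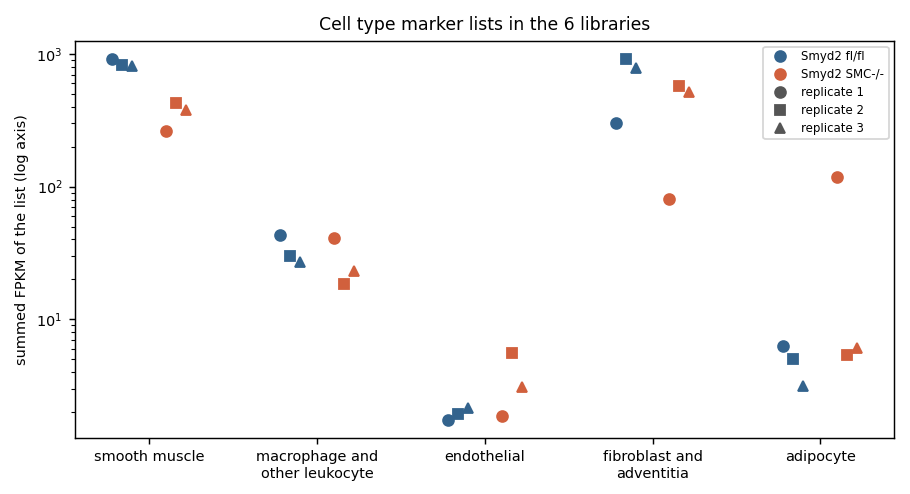
Summed FPKM of each cell type marker list in each library, on a log axis (circle, square and triangle are replicates 1, 2 and 3; blue, Smyd2 fl/fl; orange, Smyd2 SMC-/-). The smooth muscle sum is lower in all 3 knockout libraries, from 263.30 to 428.87 against at least 814.12 FPKM. This sum is mostly Acta2, and not every marker in it fell. Adipocyte markers are high in knockout replicate 1 at 118.57 FPKM.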

How the data were processed

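The authors deposited a table of FPKM per gene, with 2 decimals, for 6 libraries, made with Bowtie2 and RSEM per the submitters' processing notes; the genome build is not given in the sources used here. Fold changes, Smyd2 SMC-/- against Smyd2 fl/fl, were fitted by limma 3.58.1 in R 4.3.3 (trend and robust) on log2(FPKM + 1). Genes averaging 0.5 FPKM or more were fitted, with Benjamini-Hochberg adjustment over all of them. The fit was tested on simulated data with independent libraries, so that test does not cover the shared deviation of replicate 1. Libraries with the same replicate number deviated together from their group means (correlations 0.615, 0.460 and 0.527), and a fit with the number as a block was added. Within each group of 3, the distance of replicate 1 moves replicates 2 and 3 the other way. The correlations for replicates 2 and 3 therefore cannot show that these numbers pair the samples. Other alternatives were the pseudocount, the filter, TPM, quantile normalization, a term for replicate 1, replicates 2 and 3 alone, each library left out, and the cutoff of the methods.

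Fragments and depth were estimated with Python 3.11.15 from 4343 genes with 1 transcript: of 2247 combinations of depth and shortening of the transcript, tried in each library, the one with the highest share of low values within 0.15 of a whole number was kept (100 bases off; 69.2 to 74.9%, where the tolerance itself spans 30%). Since it was chosen for that share, the estimates are approximate, and intervals from them cover counting error only. Genes named are the 10, Smyd2, and in each pathway list those called and the most abundant up to 3 in all, others being named for their role or after their values were seen; markers beyond the most abundant and defining ones were also named with their values known. The genes and lists were chosen with earlier results of these data known.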

Additional observations from a re-analysis of the deposited data

How the results depend on the processing

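Among the 10 genes, 128 log2 fold changes under alternatives included 110 with the same direction and side of the threshold, 4 that lost and 12 that gained a call, and 2 that reversed, both Ccl2: 0.15 with replicates 2 and 3 alone, and between -0.62 and 0.075 with 1 library left out. Cxcl5 was under the filter with replicates 2 and 3 alone and without control replicate 1, so it has no value there. The cause of these changes was not tested.

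The count of the 10 called lower was 1 in the report, 3 with the replicate block, 4 with a term for replicate 1, 3 with replicates 2 and 3 alone, 0 at the cutoff of the methods (adjusted p under 0.01 and more than a 2-fold difference) and 0 to 2 with 1 library left out; the count called higher was 1 with the term for replicate 1 and 3 with replicates 2 and 3 alone, and 0 in every other fit. Over all genes, 593 were called higher and 719 lower with the replicate block, 1152 and 1398 with the term for replicate 1, 1507 and 2160 with replicates 2 and 3 alone, 247 and 99 after rescaling to TPM, 27 and 26 at the cutoff of the methods, and 16 to 372 higher and 16 to 310 lower with 1 library left out. Among the genes named, the block changed no other call than those given beside the results.

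Of the other named genes, with replicates 2 and 3 alone the log2 fold change reversed to -0.036 for Osmr, 0.12 for Zfp36l1, 0.30 for Selp, -0.11 for Itgb2 and 0.052 for Smtn, which was also 0.072 after rescaling to TPM and 0.00049 after quantile normalization. With 1 library left out it ran from -0.31 to 0.062 for Ccl25, -0.70 to 0.21 for Cx3cl1, -0.0013 to 0.55 for Osmr, -0.53 to 0.12 for Zfp36l1, -0.0051 to 0.076 for Itgb1, -0.75 to 0.26 for Selp, -0.20 to 0.029 for Smtn, -0.057 to 0.77 for Lmod1 and -0.89 to 1.79 for Dcn. At the estimated depth, genes under 1 FPKM such as Il6 rest on few fragments.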
